A study of Homo sapiens with 6 samples.

Results

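Whole-cell RNA of control K562 cells was set against nuclear and cytosolic RNA of the same control condition, locus by locus. K562 is an established human chronic myelogenous leukemia line with erythroid and megakaryocytic traits. The members are the 12893 loci, of 62828 in the deposited table, whose 3 control libraries averaged 1 FPKM or more. FPKM counts the sequenced fragments of a locus relative to its transcript length and to library size. The control cells received control oligos, and the other cells of the study received siRNA against HNRNPU, a nuclear RNA-binding protein, at 300 nM. Whole-cell, nuclear and cytosolic RNA was taken in each condition, with 1 library for each of the 6 groups. No group has a replicate, so every difference below describes these libraries and carries no test. The sources used here leave unsaid if 1 culture gave all 3 preparations of a condition. TRIzol extraction and depletion of ribosomal RNA are named in the labels' protocols, and more than 1 company handled the samples. Which preparation went to which company is not plainly given, so company and preparation cannot be told apart.

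When cells are opened gently and spun, the nuclei go to the pellet and the cytosol stays in solution. Endoplasmic reticulum and mitochondria are membrane-bound and can go with either, depending on the detergent and the spin. If a cell's RNA were split completely into the fractions and each level were a share of all RNA there, the whole-cell level of every RNA would be a weighted mean and lie between its nuclear and cytosolic levels. A sequenced library holds relative levels only, so a few very abundant RNAs in a fraction shift the level of all others there.

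The most abundant of these RNAs were short structured ones. RN7SL1 and RN7SL2 encode 7SL RNA, the scaffold of the signal recognition particle, which takes ribosomes making secreted proteins to the endoplasmic reticulum. RN7SL1 (chromosome 14, 50053296 to 50053596 on hg19) had 134987 FPKM in whole-cell RNA, 179699 in nuclear and 474379 in cytosolic RNA. RN7SL2 had 76798, 106046 and 248499 FPKM in the same order. For both, the whole-cell value was the lowest of the 3. RN7SK encodes 7SK RNA, which holds the elongation factor P-TEFb inactive and is described as nuclear. It had 87419 FPKM in whole-cell RNA, 76012 in nuclear and 260255 in cytosolic RNA, so its highest level was in the cytosolic library. The same held for RPPH1, the RNA of the tRNA-processing enzyme RNase P, with 6932, 1429 and 45108 FPKM. RMRP, the RNA of the related RNase MRP, was highest in nuclear RNA, with 27374 FPKM in whole-cell RNA, 62833 in nuclear and 21821 in cytosolic RNA. TERC, the RNA template of telomerase, was also highest there, with 294, 699 and 347 FPKM, and its whole-cell value was below both as deposited but between under both other scalings. FPKM of such short RNAs depends strongly on the length correction: for RNAs of 250 to 300 bases in the control whole-cell library, the most frequent effective length read from low values was 57.4 bases, found at 8 of 61 loci. The control nuclear library gave the same 57.4 bases, at 8 of 58 loci. For RNAs of 300 to 350 bases the control libraries differed, though few loci gave each value. The nuclear library gave 94.6 bases (6 of 45 loci), the whole-cell library 63.4 (9 of 54) and the cytosolic library 34.8 (2 of 16). The rank of such short RNAs and their share of a library sum rest on that correction. How far a comparison of 1 such RNA between libraries rests on it was not tested.

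**Figure D1:**
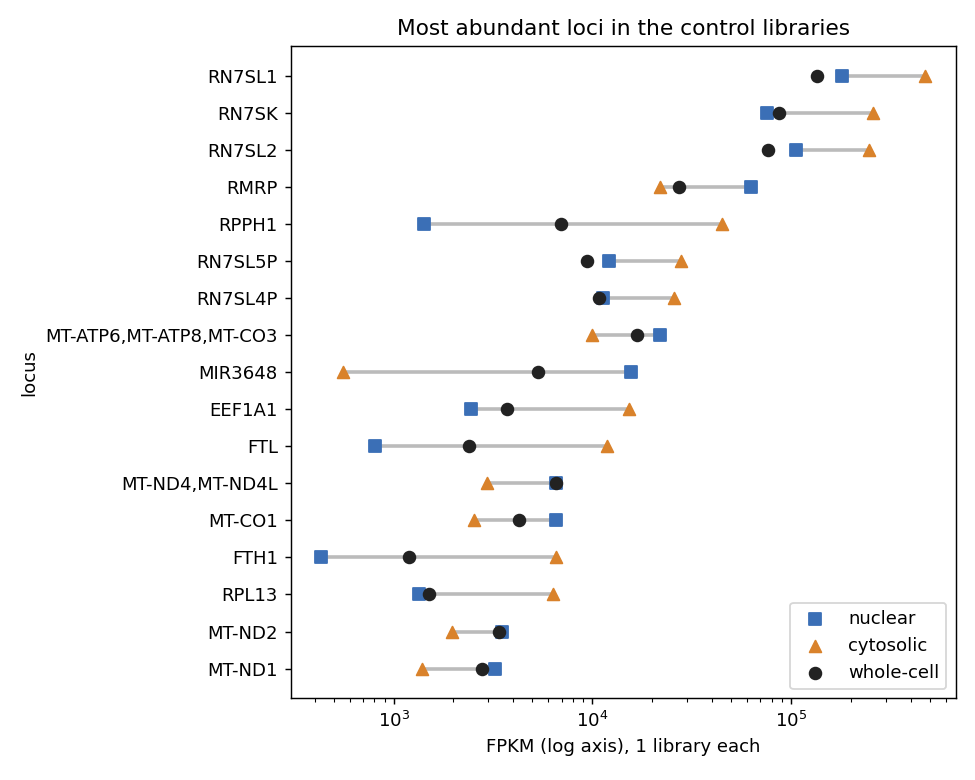
FPKM on a log axis of each locus that ranked among the 12 highest of a control library: squares are nuclear, triangles cytosolic and circles whole-cell RNA, 1 library each, and a grey line joins the fractions. RN7SL1 and RN7SL2 have their circle to the left of both fractions, while RPPH1 has it between 1429 and 45108 FPKM.

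RN7SL1 alone held 20.2% of the FPKM sum of the whole-cell library, 22.4% of the nuclear and 26.6% of the cytosolic one. The 3 highest loci, which were RN7SL1, RN7SK and RN7SL2 in each library, held 44.9%, 45.1% and 55.2%. The 10 highest held 57.3%, 62.2% and 64.0%. All 7SL loci together, pseudogene copies included, held 34.9%, 38.6% and 43.6%, and all small RNA loci 51.4%, 56.5% and 59.1%. The share was thus highest in the cytosolic library at each of these cuts. Reads of near-identical 7SL copies could have been divided among them, so single copies are less certain than their sum.

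Mitochondrially encoded RNAs held 6.32% of the whole-cell sum, 6.43% of the nuclear and 1.37% of the cytosolic sum. Without the small RNA class the 10 highest loci held 19.6%, 21.2% and 16.6%. These still include 7SL copies classed as pseudogenes, such as RN7SL4P and RN7SL5P, with 25860 and 27806 FPKM in cytosolic RNA. Among protein-coding loci alone the 100 highest held 32.6% of the protein-coding sum in whole-cell RNA, 26.9% in nuclear and 45.8% in cytosolic RNA. The mRNAs at the top of the cytosolic library were those of EEF1A1, the elongation factor that brings tRNAs to the ribosome, and of ferritin. EEF1A1 had 3702 FPKM in whole-cell RNA, 2438 in nuclear and 15233 in cytosolic RNA. The ferritin light chain gene FTL had 2398, 802 and 11814 FPKM, and the heavy chain gene FTH1 had 1196, 430 and 6569. For these 3 mRNAs the whole-cell value lay between the fractions and, as deposited, nearer to the nuclear one.

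**Figure D2:**
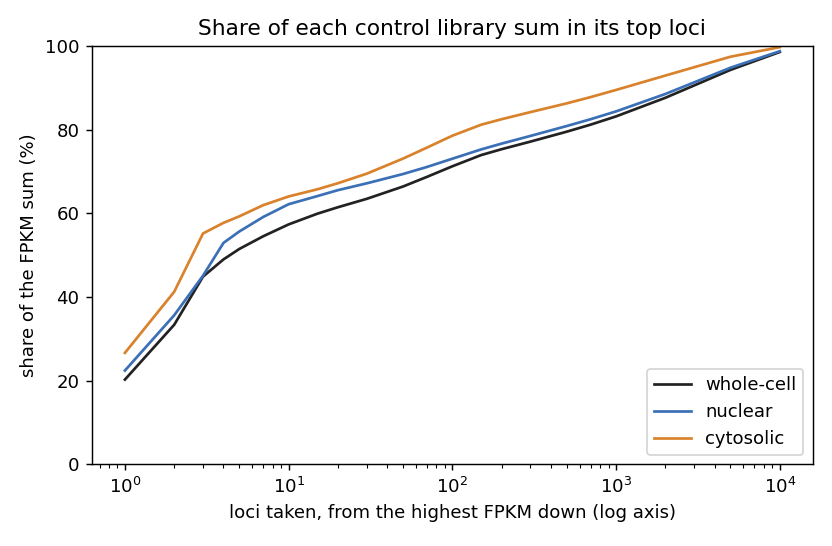
Share of the FPKM sum of each control library (percent) held by its highest loci, against the number of loci taken on a log axis; 1 line per library. The lines start at 20.2%, 22.4% and 26.6% for 1 locus, and the cytosolic line stays highest, at 78.5% for 100 loci against 71.2% for whole-cell RNA.

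The sum of FPKM over all loci was itself uneven: 666927 in whole-cell RNA, 802344 in nuclear and 1781860 in cytosolic RNA. How the authors scaled the libraries was not stated in what was used here. Positions are therefore given as deposited and under 2 other scalings. In the first, each library was scaled to the same median over protein-coding loci, which multiplied nuclear values by 0.896 and cytosolic values by 0.619. In the second, each was scaled to the same sum without mitochondrial, small and 7SL RNAs, with factors of 0.956 and 0.402. Both lower the cytosolic values more than the nuclear ones, and a locus changes position where a lowered fraction value passes its whole-cell value.

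As deposited, whole-cell FPKM lay between the fractions at 5036 of the 12893 loci (39.1%). It lay outside them at 60.9%, above both at 1451 loci (11.3%) and below both at 6406 loci (49.7%). In bulk RNA, fewer cells with an RNA and less RNA per cell cannot be told apart. The share below both did not hold under the other scalings, which put 3006 (23.3%) and 1281 (9.94%) loci below both, and 6937 (53.8%) and 8011 (62.1%) between. Loci at least 1.5-fold beyond the nearer fraction were few: 334 above both (2.59%) and 636 below both (4.93%). At 2-fold there were 134 above (1.04%) and 97 below (0.752%). So most loci outside the fractions lay close to the nearer one.

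The position as deposited went with how far apart the fractions were. Where nuclear and cytosolic FPKM differed by less than 0.5 on the log2 scale, 15.5% of 3679 loci lay between and 74.0% below both. From 0.5 to 1 the share between was 32.5%, from 1 to 2 it was 55.7%, and at 2 or more it was 62.5% of 1756 loci. In that last group 35.9% lay above both and 1.54% below both. A small separation leaves little room between the fractions, so these shares partly follow from the definition. They were not computed under the other scalings.

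RNA classes differed in position as deposited. Protein-coding loci (10338) lay below both in 57.1% and above both in 5.03% of cases. Under the protein-coding median and equal-sum scalings 26.6% and 10.9% of them were below both. The 294 loci of lncRNAs, long transcripts without a coding frame, lay between in 46.3%, above both in 19.7% and below both in 34.0%. Pseudogenes (308) lay above both in 36.7%, and loci with clone-based names (865) in 27.1%. The 1012 loci with no gene name, which carry only a locus number, were above both in 51.5% and below both in 6.92%. Under both other scalings the loci with no name kept the highest share above both of these classes, at 63.7% and 59.1%. At a minimum mean of 5 FPKM they did not: 13 of 57 (22.8%) lay above both, against 23.1% of 91 pseudogenes. Small RNA loci (48) lay between in 66.7%, and 10 of the 11 mitochondrially encoded loci lay between, but 7 and 8 of them under the protein-coding median and equal sums. Without loci listed at 0 in a library, 18 of 32 small RNA loci lay between and 14 below both.

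**Figure D3:**
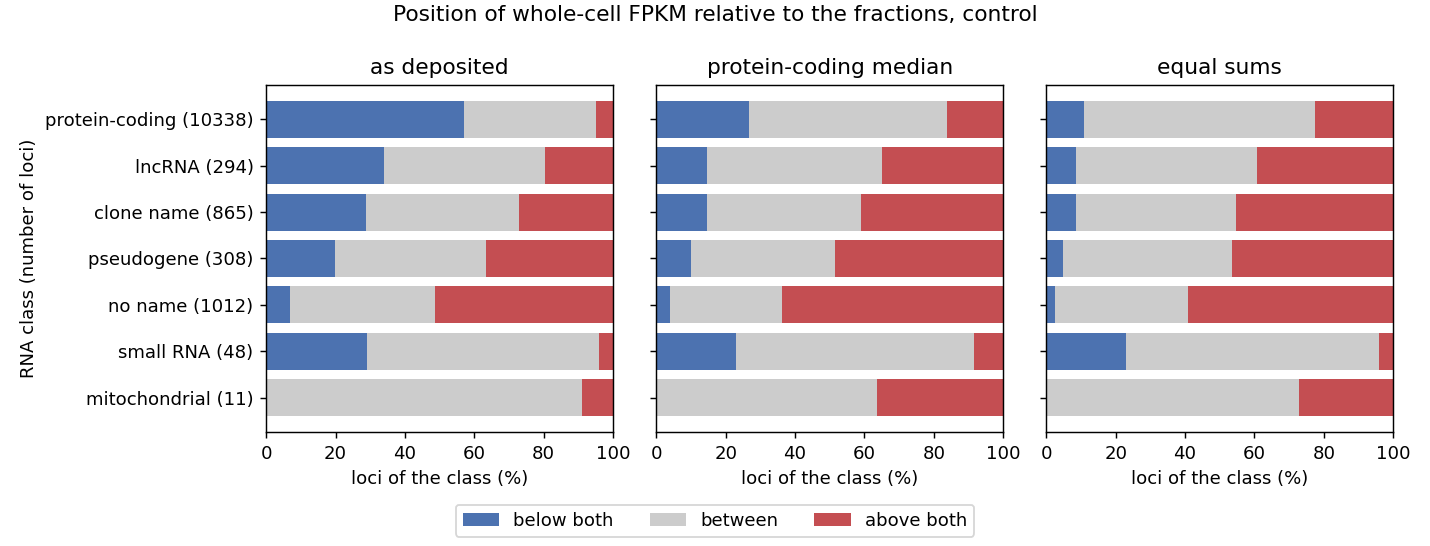
Share of the loci of each class (percent, number of loci in brackets) whose control whole-cell FPKM is below both, between or above both fraction values, for values as deposited, scaled to the protein-coding median and scaled to equal sums. Protein-coding loci change from 57.1% below both as deposited to 26.6% and 10.9%, while loci with no name stay at 51.5% to 63.7% above both.

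To have a measure that does not move with the scaling of a fraction, whole-cell FPKM was fitted as a weighted sum of the fraction values. Over protein-coding loci the weights were 0.660 for nuclear and 0.132 for cytosolic FPKM. The weights sum to 0.792 and depend on the deposited scaling, so they are not shares of RNA in the cell. Observed and fitted values differed by a median of 0.17 on the log2 scale, and 94.1% of protein-coding loci were within 1.5-fold of the fit. Over all loci, 1276 (9.9%) were at least 1.5-fold above it and 415 (3.22%) at least 1.5-fold below.

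Loci with no name stood highest against this sum, with a median log2 observed over fitted value of 0.57, and 493 of 1012 (48.7%) were at least 1.5-fold above it. Pseudogenes had 0.31, clone-named loci 0.22 and lncRNAs 0.13, against -0.02 for protein-coding loci. The median log2 whole-cell over nuclear value of loci with no name was 0.07, so at the median both levels were close. Where cytosolic RNA is low, the sum is near 0.660 times the nuclear value, so equal whole-cell and nuclear levels already stand above it. Small RNAs stood lowest against the sum, at -0.94, with 36 of 48 at least 1.5-fold below it. Among these 48, groups of 7, 3 and 2 loci carried identical values and are not separate measurements, and 16 loci were listed at 0 in a library. Mitochondrially encoded RNAs were at 0.27 in the control, but at -0.17 in the knockdown libraries, so their direction was not the same in both conditions.

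The classes also differed in where their loci sit between the compartments. Loci with no name had a median log2 nuclear over cytosolic value of 2.98, against -0.61 for protein-coding loci. Along this ratio the position of protein-coding loci was not even. Their median log2 whole-cell over nuclear value was 0.75 below a ratio of -2.5, -0.51 from 1 to 1.5, and -0.08 at 3 or more. Compared with protein-coding loci of the same nuclear over cytosolic ratio, the median of loci with no name came down to 0.24, that of lncRNAs was 0.12 and that of pseudogenes 0.20. This comparison used bins of the ratio, the last open from 3 on. That bin held 502 loci with no name but 38 protein-coding loci, so the match there is thin. The classes also differ in level: the median of the 3-library mean was 1.67 FPKM for loci with no name and 11.5 FPKM for protein-coding loci. At a mean of 1 to 2 FPKM, 52.1% of 639 loci with no name and 15.2% of 744 protein-coding loci lay above both.

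**Figure D4:**
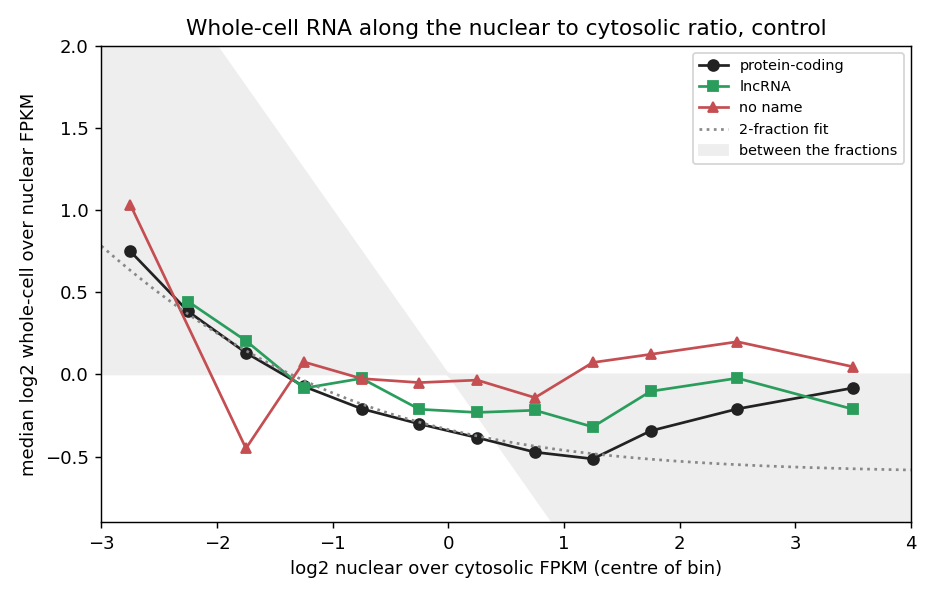
Median log2 whole-cell over nuclear FPKM of control loci, against their log2 nuclear over cytosolic FPKM in bins of at least 10 loci, for protein-coding, lncRNA and no-name loci; the dotted line is the fitted weighted sum and the grey area lies between the fractions. Protein-coding loci go from 0.75 at the left to -0.51 and back to -0.08 at the right, and no-name loci lie at 0.05 to 0.20 from a ratio of 1 on.

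The loci with no name were short, with a median span of 1.20 kilobases. Most of them, 82.7%, lay farther than 5 kilobases from any protein-coding locus on hg19, and 54.4% of these were above both fractions. Of those within 5 kilobases (17.2%), 37.4% were above both. Their median was 0.218 FPKM in cytosolic and 2.31 in whole-cell RNA. Among all loci at least 1.5-fold above both, 123 of 334 were listed at 0 in a fraction. The table pairs no transcript length with the loci without a name, so their counting error was not estimated.

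Genes of the main mRNA groups were described by list, beside the 53.1% of protein-coding loci that were below the fitted sum. The mRNAs of replication-dependent histones, which are made in S phase and end in a stem-loop instead of a poly(A) tail, were low in whole-cell RNA. Of 50 such loci, 48 were below both fractions as deposited, 46 under the protein-coding median and 35 under equal sums. This held in most of them under each scaling, against 57.1%, 26.6% and 10.9% of all protein-coding loci. Against the fitted sum 48 of 50 were below, with a median of -0.31. The linker histone gene HIST1H1C had 395 FPKM in whole-cell RNA, 558 in nuclear and 883 in cytosolic RNA. The histone H4 gene HIST1H4J had 448, 641 and 1511 FPKM, and the histone H3 gene HIST1H3B had 304, 395 and 866. In each of these 3 the whole-cell library had the lowest value as deposited, and HIST1H1C lay between under equal sums. The 7 replacement histone genes, which are made outside S phase with a poly(A) tail, were also all below the sum, with a median of -0.33. H3F3A had 200 FPKM in whole-cell RNA, 198 in nuclear and 578 in cytosolic RNA and was close to the fit (-0.05), while H3F3B had 138, 177 and 435 FPKM (-0.34).

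Genes of the endoplasmic reticulum (35 loci for chaperones, the translocon and glycosylation) were the next lowest mRNA group: 32 were below the fitted sum, with a median of -0.27. Against protein-coding loci of the same nuclear over cytosolic ratio the median was -0.25. CALR, a calcium-binding chaperone gene, had 173, 303 and 164 FPKM in whole-cell, nuclear and cytosolic RNA, and CANX, its membrane-bound relative, had 224, 356 and 305. P4HB, a disulfide isomerase, had 172, 264 and 216 FPKM. As deposited 25 of the 35 (71.4%) were below both fractions, but 12 (34.3%) and 6 (17.1%) under the protein-coding median and equal sums. The background was 57.1%, 26.6% and 10.9% of all protein-coding loci. The 146 solute carrier loci, whose proteins are membrane transporters, had a median of -0.13, with 96 below the sum. This list was chosen after the values were seen. SLC3A2, which encodes an amino acid transporter subunit, had 78.4, 140 and 78.1 FPKM in the same order, and the glutamine transporter gene SLC1A5 had 59.9, 103 and 70.3.

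Cytosolic ribosomal protein genes differed from these groups. Of 85 loci, 75 (88.2%) lay between the fractions as deposited, and 81 and 77 under the other scalings, with a median of -0.02 against the fitted sum. Their median log2 nuclear over cytosolic value was -2.10. Of all protein-coding loci, 95.8% lay between at a value of -2.5 to -2, and 75.9% at -2 to -1.5. The share between was thus close to that of protein-coding loci of a like ratio, against which their median was -0.02. RPL13 had 1501 FPKM in whole-cell RNA, 1338 in nuclear and 6377 in cytosolic RNA. RPL41 had 1830, 1656 and 5521 FPKM, and the locus of EEF2, the translocation factor of the ribosome, merged with SNORD37, had 827, 650 and 3121. All 3 had their lowest value in nuclear RNA. Translation factor genes (34) lay between in 20 cases and had a median of -0.05. Mitochondrial ribosomal protein genes (76) and nuclear-encoded respiratory chain genes (77) were below both in 51 and 49 cases as deposited, with medians of -0.08 and -0.09. These are 67.1% and 63.6%, near the 57.1% of all protein-coding loci. Under the protein-coding median 26 and 25 were below both (34.2% and 32.5%, against 26.6% of protein-coding loci). Under equal sums 22 and 26 were (28.9% and 33.8%, against 10.9%).

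Genes of heat shock proteins, the proteasome and the immediate early response were mostly below both as deposited and under the protein-coding median, but not under equal sums. Of all protein-coding loci 57.1%, 26.6% and 10.9% were below both in that order. All 19 heat shock and chaperonin genes were below both, with 11 and 5 under the protein-coding median and equal sums. For proteasome subunit genes these counts were 33, 22 and 9 of 36, and for immediate early genes 18, 12 and 2 of 21. HSP90AB1, a cytosolic chaperone gene, had 359 FPKM in whole-cell RNA, 428 in nuclear and 860 in cytosolic RNA. PSMB1, of the proteasome core, had 113, 122 and 264 FPKM. Their medians against the fitted sum were -0.12 for heat shock, -0.13 for proteasome and -0.18 for immediate early genes.

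Few mRNA lists had medians above the fitted sum. Of 335 zinc finger ZNF loci, which encode DNA-binding repressors for the most part, 223 were above the sum, with a median of 0.12. The 20 genes known for transcripts that keep introns in the nucleus had 15 loci above the sum and a median of 0.14. Against protein-coding loci of the same ratio, 9 of the 20 were above. SR splicing factor genes (17) were at 0.01. The locus of SRRM2, a scaffold of nuclear speckles, merged with AC092117.2, had 136 FPKM in whole-cell RNA, 130 in nuclear and 35.3 in cytosolic RNA, which is 0.58 above the sum. OGT, the O-GlcNAc transferase gene, had 114, 153 and 19.9 FPKM.

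**Figure D5:**
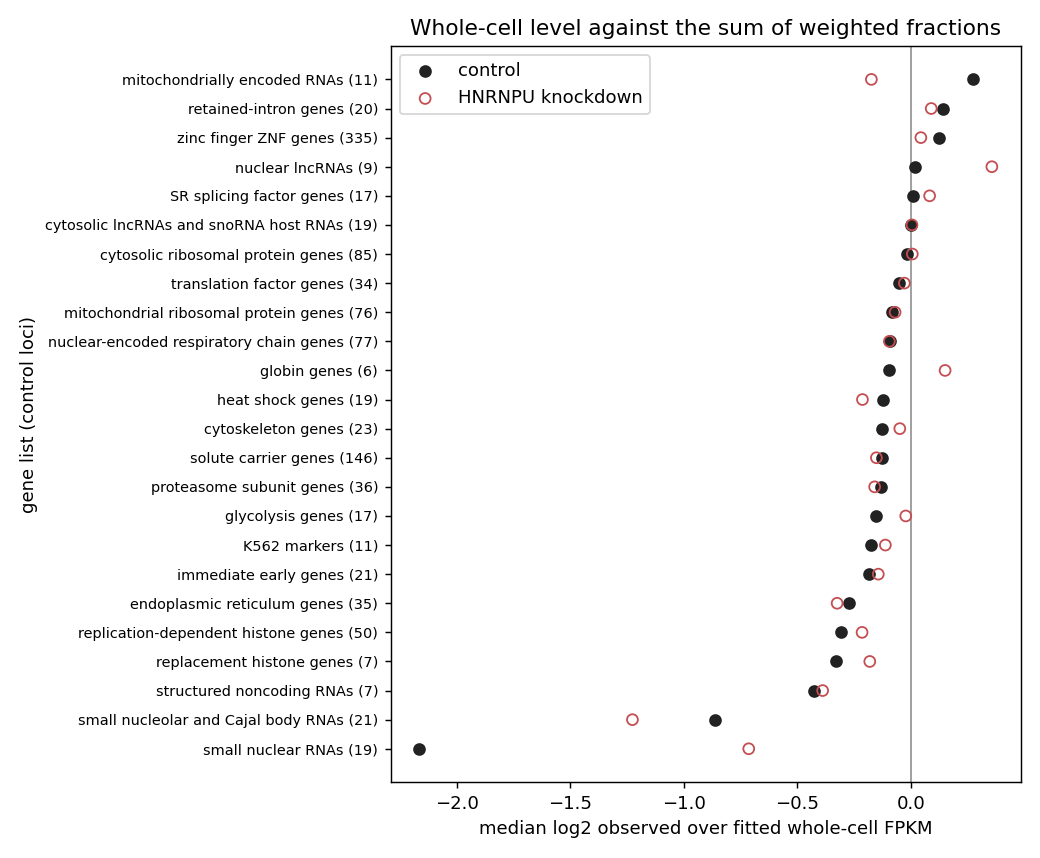
Median log2 of observed over fitted whole-cell FPKM for each gene list (number of control loci in brackets): filled points are the control and open points the knockdown libraries, 1 library per preparation. Replication-dependent histone genes (-0.31 and -0.22) and endoplasmic reticulum genes (-0.27 and -0.32) lie left of 0 in both, and mitochondrially encoded RNAs lie on different sides.

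The groups of small RNAs of the nucleus differed in position. Of 21 small nucleolar and Cajal body RNA loci, which guide modification of ribosomal and spliceosomal RNA, 18 lay between. Their median was -0.86 against the fitted sum, with 20 of 21 below it. SCARNA10 had 1102 FPKM in whole-cell RNA, 2530 in nuclear and 143 in cytosolic RNA. SCARNA2 had 430, 1363 and 37.3 FPKM, and SNORA73B had 696, 2389 and 180. All 3 had their lowest value in cytosolic RNA. Of 19 small nuclear RNA loci, which include the spliceosomal U1, 10 lay between, 8 below both and 1 above. A whole-cell value equal to the lower fraction counts as between. This takes in 3 U1 copies listed at 0 in whole-cell and cytosolic RNA and at 54.9 FPKM in nuclear RNA. Without loci listed at 0 in a library, a setting chosen after seeing the data, 3 of 11 lay between and 8 below both. Of the 19, 7 U1 copies carried the same 3 values, 39.9, 247 and 120 FPKM, so they give 1 measurement. Their whole-cell value stood at -1.58 from the nearer fraction on the log2 scale, but at -0.89 under the protein-coding median and -0.27 under equal sums. With 30 estimated fragments or more in each library, a setting chosen after seeing the data, 11 of 20 small RNA loci lay below both and 9 between. SNORA73 was listed at 11.9 FPKM in whole-cell RNA and at 0 in both fractions, and RNU2-22P at 4.92 and at 0 in both.

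Some protein-coding loci are merged with small RNA genes or their hosts. RCC1, a chromatin-bound exchange factor gene, shares its locus with the small nucleolar RNA host SNHG3, and SNORA73B lies in it. The locus had 600 FPKM in whole-cell RNA, 2255 in nuclear and 112 in cytosolic RNA, 1.33 below the fitted sum on the log2 scale. WDR74 shares its locus with RNU2-2P, a U2 spliceosomal RNA copy, and had 753, 2272 and 1281 FPKM. The part of the small RNAs in these values was not tested.

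Of 9 nuclear lncRNAs fixed as a list 3 were below the fitted sum, the lowest at -1.71, and of 19 cytosolic lncRNAs and snoRNA hosts 9 were below it. MALAT1, an RNA of nuclear speckles, had 1333 FPKM in whole-cell RNA, 1984 in nuclear and 141 in cytosolic RNA and was 0.01 from the fitted sum. NEAT1, the scaffold of paraspeckles, had 72.02, 67.2 and 13.7 FPKM, slightly above both fractions and 0.64 above the sum. GAS5, a small nucleolar RNA host, had 260, 240 and 853 FPKM and was 0.06 below the sum. The lncRNA loci farthest above both at a mean of at least 5 FPKM were LENG8-AS1 (1.62-fold), CIRBP-AS1 (1.61-fold), LINC01028 (1.48-fold) and LINC00504 (1.46-fold). LINC00504 had 18.9 FPKM in whole-cell RNA, 12.9 in nuclear and 1.95 in cytosolic RNA. All 4 were above both under each scaling. LENG8-AS1 and CIRBP-AS1 are antisense loci, where counting may have taken in reads of the sense gene. Farthest below both were LINC01063 (3.03-fold), SNHG7 (2.06-fold), LINC00847 and the locus of C7orf13 with LINC01006 (-0.59 on the log2 scale for each of the last). LINC01063 had 1.16, 3.71 and 10.2 FPKM, which is an estimated 2.97 fragments in whole-cell RNA. Of these 4, SNHG7, LINC00847 and the C7orf13 locus lay between under equal sums, and the C7orf13 locus also under the protein-coding median.

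Among protein-coding loci averaging 5 FPKM or more, BBS7 was farthest above both. BBS7 encodes a subunit of the BBSome, a complex that carries cargo in cilia. It had 54.8 FPKM in whole-cell RNA, 3.52 in nuclear and 8.64 in cytosolic control RNA, and 5.55, 4.24 and 8.07 in the knockdown libraries, so the high value was in 1 library. The lysosomal enzyme gene IDUA had 9.48 FPKM in whole-cell RNA, 4.65 in nuclear and 2.03 in cytosolic RNA, 2.02-fold above the nearer fraction. GIPR, the receptor of an incretin hormone, had 13.1, 6.93 and 2.50 FPKM. The locus of GOLGA8A and GOLGA8B, near-identical golgin genes, had 79.0, 43.4 and 5.83 FPKM. The next were PLXNA3, EIF4ENIF1, CCDC159 and CPNE7, at 1.63- to 1.78-fold. These 8 were above both under each scaling.

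Farthest below both were ITGB5, an integrin chain gene, at 2.70-fold and BCAN, a proteoglycan gene, at 2.55-fold. ITGB5 had 2.58 FPKM in whole-cell RNA, 7.62 in nuclear and 7.15 in cytosolic RNA, against 4.35, 5.07 and 3.65 in the knockdown libraries, where it lay between. The lysosomal enzyme gene AGA had 4.02, 11.6 and 10.3 FPKM. TMEM261, FAM98B, KLF13, PDP2 and ATF7IP stood at -1.13 to -1.26 from the nearer fraction on the log2 scale. Of the 8, all stayed below both under the protein-coding median, and ATF7IP lay between under equal sums. None of the 8 was 1.5-fold below both in the knockdown libraries.

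Counting error was estimated where a transcript length was known. With fragments estimated from FPKM and transcript length, 1 FPKM over 1 kilobase stood for 23.7 fragments in whole-cell RNA, 19.9 in nuclear and 13.7 in cytosolic control RNA. Of 498 protein-coding loci with a length that were 1.5-fold below both, 474 were beyond the 95% counting error, and of 44 above both, 40 were. Of lncRNAs, 8 of 12 above and 6 of 11 below were. These intervals cover counting only and no spread between preparations. The loci were chosen by the same distance in the same libraries, so these counts are no separate support for it.

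The 3 knockdown libraries, from another condition and no replicate, were described in the same way. The targeted gene HNRNPU, whose locus is merged with its antisense RNA, was at 129 FPKM in the control and at 55.3 in the knockdown in whole-cell RNA. Of 12851 knockdown loci at the same minimum, 39.1% lay between and 60.9% outside, with 12.4% above both and 48.5% below both. Beyond 1.5-fold were 3% above and 3.95% below, and beyond 2-fold 1.35% and 0.654%. Against the fitted sum 9.5% were 1.5-fold above and 2.99% below. Loci with no name were above both in 50.8%. Against protein-coding loci of the same nuclear over cytosolic ratio their median was 0.07, where the control had 0.24, and lay below that of pseudogenes (0.18), clone-named loci (0.12) and lncRNAs (0.10). The fitted weights were 0.696 and 0.128. Histone genes (52 loci) were below the sum in 45 cases, with a median of -0.22, and endoplasmic reticulum genes in 33 of 35, with -0.32. The background was 53.9% of protein-coding loci below the sum. Small nucleolar and Cajal body RNAs had a median of -1.23.

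Over the 12395 loci kept in both conditions, 255 control and 302 knockdown loci were 1.5-fold above both. Of these, 116 were in both lists, which is 45.5% of the control and 38.4% of the knockdown list, against a background of 2.44% of all loci in the knockdown. Loci with no name made up 126 of the 255 control loci and 63 of the 116 in both lists. These 63 are 50% of the 126, against a background of 14.8% of that class in the knockdown. Of 594 and 479 loci 1.5-fold below both, 94 were in both lists (15.8% and 19.6%), against 3.86% of all in the knockdown. Across these loci, which are not independent replicates, the log2 values against the fitted sum had a Pearson's r of 0.39 and a Spearman's rho of 0.47 between conditions.

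Protein-coding loci 1.5-fold above both in each condition numbered 12, and their values below were chosen for it. They are 28.6% of 42 such loci in the control and 17.4% of 69 in the knockdown, so most did not recur. The background was 0.676% of 10200 protein-coding loci in the knockdown. Besides IDUA and GIPR they include RYR1, a calcium release channel gene, with 6.79 FPKM in whole-cell RNA, 3.73 in nuclear and 1.58 in cytosolic control RNA, and 5.17, 2.58 and 1.63 after knockdown. ALOX5, a leukotriene-forming enzyme gene, had 2.19, 1.42 and 0.796 FPKM, and 2.02, 1.23 and 1.03 after knockdown. SPDYE2, SPDYE2B and SPDYE6, near-identical copies of a cell cycle gene, were also among them and are less certain. The lncRNA loci above both in each condition were LINC00894, AGAP1-IT1, FAM157C and MFI2-AS1.

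Protein-coding loci 1.5-fold below both in each condition numbered 71. They are 14.3% of 495 such loci in the control and 18.8% of 377 in the knockdown, against a background of 3.70% in the knockdown. The nuclear lamina gene LMNB1 had 29.1 FPKM in whole-cell RNA, 52.6 in nuclear and 47.6 in cytosolic control RNA, and 29.8, 57.0 and 66.2 after knockdown. TOP2A, the topoisomerase of dividing cells, had 44.5, 67.3 and 78.0 FPKM, and 45.1, 69.0 and 77.2 after knockdown. VCP, a segregase ATPase gene, had 34.4, 63.0 and 52.3 FPKM, and 36.1, 55.5 and 63.1 after knockdown. SURF4, a cargo receptor of the endoplasmic reticulum, had 20.7, 32.5 and 33.5 FPKM, and 21.0, 32.6 and 31.6 after knockdown. In each of these 4 the whole-cell library was the lowest in both conditions as deposited, but in the control all 4 lay between under equal sums and VCP also under the protein-coding median. They too were named after their values were seen.

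The cell type was checked against marker genes. All 11 K562 marker loci were above the minimum, with sums of 821 FPKM in whole-cell RNA, 1019 in nuclear and 2072 in cytosolic RNA. HBG1, a fetal globin gene, had 88.6, 120 and 189 FPKM, and GATA1, an erythroid transcription factor gene, had 29.2, 35.5 and 54.9. Of 18 markers of other cell types, 5 were above the minimum: CD3D, EPCAM, COL1A2, LYZ and CD3E. Summed, the 18 had 37.7 FPKM in whole-cell RNA, 53.1 in nuclear and 50.9 in cytosolic RNA, and KRT5 and MS4A1 were listed at 0 in each. Their part in the results was not tested. The fraction marker MT-CYB, a mitochondrial cytochrome b transcript, had 1422 FPKM in whole-cell RNA, 1667 in nuclear and 776 in cytosolic RNA, so mitochondrial RNA was lowest in the cytosolic library.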

How the data were processed

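RNA of K562 cells was measured in 6 libraries, of which the 3 control libraries were compared and the 3 knockdown libraries set beside them. The authors deposited FPKM values per locus, a unit read from the values and tools. Per the submitters' processing notes, CASAVA, FastQC, TopHat2 2.0.13 and Cuffdiff 2.2.1 were used, with builds hg19 and mm9. The sources used here do not give annotation, library scaling or strand use. Gene types and lengths came from GENCODE release 29 by symbol, without its coordinates.

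Whole-cell FPKM was placed against both fractions on log2(FPKM + 0.1). A size rule of 1.5-fold beyond the nearer fraction stood in for a test, with 1 library per group. The fit used least squares of log2 values over protein-coding loci and was tested on simulated data. Depth was read from the steps of low values where loci have 1 exon, after subtracting 240 bases from each length. A length was known for 82.2% of the loci.

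The members, lists and rules were chosen with earlier results of these data known. Named loci are the 12 highest of each library, the 8 protein-coding, 4 lncRNA and 3 small RNA loci farthest each way (mean 5 FPKM or more), the 6 farthest from the fit each way, 10 fixed genes and up to 4 per list. Some of these are not printed. Alternatives were the pseudocount, minimum, scaling, single-name loci, depth and fit. Computation used scipy 1.17.1, matplotlib 3.10.9, pandas 2.3.3 and numpy 2.4.6 under Python 3.11.15. Some sequences are not reported here.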

Additional observations from a re-analysis of the deposited data

How the results depend on the processing

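No paired analysis was possible because each group has 1 library. The main limits are the single library per group, the unknown library scaling and the low depth of the cytosolic library. A pseudocount of 1 left the positions as they were and gave 215 loci above and 316 below both by 1.5-fold.

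At a minimum mean of 5 FPKM, 3223 of 8472 loci (38.0%) lay between and 355 (4.19%) above both. Beyond 1.5-fold were 21 above and 337 below. Of 109 lncRNAs 46 lay below and 14 above both, and 13 of 57 loci with no name above. The knockdown had 425 of 8496 loci (5.00%) above both. With no minimum, 12779 of 29148 loci (43.8%) lay between and 7900 (27.1%) above both, with 3145 above and 1396 below by 1.5-fold. Of 886 lncRNAs 188 (21.2%) lay below and 285 (32.2%) above both, so more were above than below, unlike at a mean of 1 FPKM. Of 6860 loci with no name, 3224 (47.0%) lay above. The knockdown had 13076 of 29711 loci between and 8177 (27.5%) above.

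Equal sums gave 8011 between, 3601 above and 1281 below both, with 63 below by 1.5-fold. Below both were 1130 protein-coding and 25 lncRNA loci, and 115 lncRNA loci lay above. The knockdown had 7812, 3691 and 1348. The protein-coding median gave 2950 above and 3006 below both, with 529 and 139 beyond 1.5-fold. Below both were 2753 protein-coding and 43 lncRNA loci, and 103 lncRNA loci lay above. The knockdown had 3085 above and 3119 below.

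The next 2 settings were chosen after seeing the data. With 30 estimated fragments or more in each library, 449 of 9842 loci (4.56%) lay above both, 27 of them by 1.5-fold. Of 135 lncRNAs 62 lay below and 15 above, and the knockdown had 574 loci above. Loci with no name have no length and gave no value. Without loci listed at 0 in a library, 211 of 12490 loci lay 1.5-fold above both.

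The nuclear weight of the fit was 0.651 at a mean of 5 FPKM, 0.636 with no minimum, 0.640 with absolute errors, 0.752 over all loci, 0.651 with single names and 0.696 in the knockdown. The cytosolic weight was 0.143 with no minimum, 0.136 with absolute errors, 0.0900 over all loci and 0.136 with single names. The 10 highest loci held 57.8%, 62.6% and 64.1% of whole-cell, nuclear and cytosolic sums over loci above the minimum. They held 58.4%, 62.7% and 64.7% without mitochondrial RNAs, 19.6%, 21.2% and 16.6% without small RNAs, and 63.1%, 67.1% and 71.3% over single-name loci. The cause of these differences was not tested. The other 55 values of these comparisons did not move: counts stayed within 1.5 times of the main value and weights were equal to it after rounding. Of the counts below both by gene list, 44 moved and 156 stayed equal or within 1.5 times.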
